A study of Mus musculus with 6 samples.

Results

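The splicing factors described here are 34 genes: 10 SR proteins (Srsf1 to Srsf6 and Srsf9 to Srsf12), the 3 U2AF genes, the 3 SF3a and 6 SF3b genes of the U2 particle, and 12 PRPF factors. They are the genes whose current symbol, found through the Entrez Gene number of the probe set, starts with Srsf, Sf3a, Sf3b, U2af or Prpf as the family names do, out of 23185 named genes on the array. Srsf7 was not analysed here. Hematopoietic stem cells (HSCs) were taken fresh from adult bone marrow of mice labelled young and double sorted as CD150+CD48- LSK cells, where LSK stands for no lineage markers with Sca-1 and c-Kit. The 2 groups are wild-type (WT) mice and Merit40-/- mice, which lack the Merit40 gene (Babam1), with 3 Affymetrix Mouse Gene 2.0 ST arrays each, and nothing was given to the mice or the cells per the labels. The labels call the arrays biological replicates but give neither the number of mice behind an array, their sex, nor how the Merit40 allele was made, so p-values measure the spread between these arrays.

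Introns are removed from transcripts by the spliceosome, which is built anew on each intron. SR proteins bind exons through their RNA recognition motifs and recruit other factors through a tail rich in arginine and serine. U2AF then recognises the end of the intron, SF3a and SF3b anchor the U2 particle at the branch site, and the PRPF factors belong mainly to the U4/U6.U5 tri-snRNP and to the complexes that activate it. In blood, SF3B1, SRSF2 and U2AF1 are among the genes most often mutated in myelodysplastic syndromes, which arise from stem cells.

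Each value is a log2 level of 1 probe set on 1 array, made by the authors with RMA (background correction, a common intensity distribution for all arrays and a summary over the probes of a gene). One value per gene cannot show which exons are joined: the arrays measured the amount of splicing factor mRNA, not splicing. Because different probe sets do not share a scale, genotypes are compared only within a gene. The median level of all genes serves only as a rough mark of high and low levels. The RNA came from many cells, so fewer cells of a type and less RNA per cell cannot be told apart. How precise the values are is limited by the number of arrays.

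The targeted gene matched the labels: Babam1 read 7.91, 8.04 and 8.05 in WT against 4.29, 3.87 and 4.01 in Merit40-/-, and fell by 3.94 (SE 0.14, adjusted p = 5.04e-05 in limma). All 10 measured genes of a list of 12 HSC markers, the sorting genes Slamf1 and Kit among them, lay above the median level of all genes (4.93), as did 7 of 8 granulocyte and monocyte, 4 of 5 erythroid, 2 of 6 lymphoid and 3 of 6 stromal and endothelial markers. Merit40-/- replicate 1 stood apart in skeletal muscle genes: its mean over 17 of them was 7.42, against 4.54 to 4.75 on the other 5 arrays. It was the highest array for all of them but Myh2, Tnnt1 and Mb. Merit40-/- replicate 3 stood apart in osteoclast genes, with a mean of 5.37 over 9 genes against 4.12 to 4.32. Ctsk read 7.94 and Acp5 7.91 there. It was the highest array for all of these genes but Calcr, Dcstamp and Clcn7.

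No splicing factor of the families passed the test between genotypes. Of the 34 genes 0 had an adjusted p under 0.05 in limma, where 0.00431% of all genes did (1 gene, Babam1). The smallest adjusted p among the 34 was 0.999 in limma. At an unadjusted p under 0.05 there was 1 gene, Prpf19, which is 1 of 34 where 4.22% of all genes passed (1.96% of all genes in the lower direction). An unmoderated test per gene also called 0 after adjustment, with 2 genes at an unadjusted p under 0.05 (Prpf19 and Prpf39). The same pair of genes, both lower in Merit40-/-, were those whose WT and Merit40-/- arrays did not overlap, which is 5.88% of the 34 against 9.05% of all genes (4.22% in the lower direction). These shares are close to the background.

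The differences were small in both directions. In Merit40-/- 15 genes were higher and 19 lower, and the median difference, Merit40-/- minus WT, was -0.028 on the log2 scale against 0.0052 over all genes. For 30 of the 34 the difference was under 0.2 in size, and the median size was 0.086 against 0.11 over all genes. The intervals limit the size of any change: limma's 95% interval lay within 1.5-fold in either direction for 31 of 34 (91.2%, against 73.2% of all genes) and within 2-fold for 32 of 34 (94.1%, against 96.4%). Those intervals are not adjusted for the number of genes. The wider ones belonged to U2af1, Sf3b4 and Prpf38a. Of the 34, 33 lay above the median level of all genes. Srsf12 did not, and log2 values that low understate differences.

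**Figure D1:**
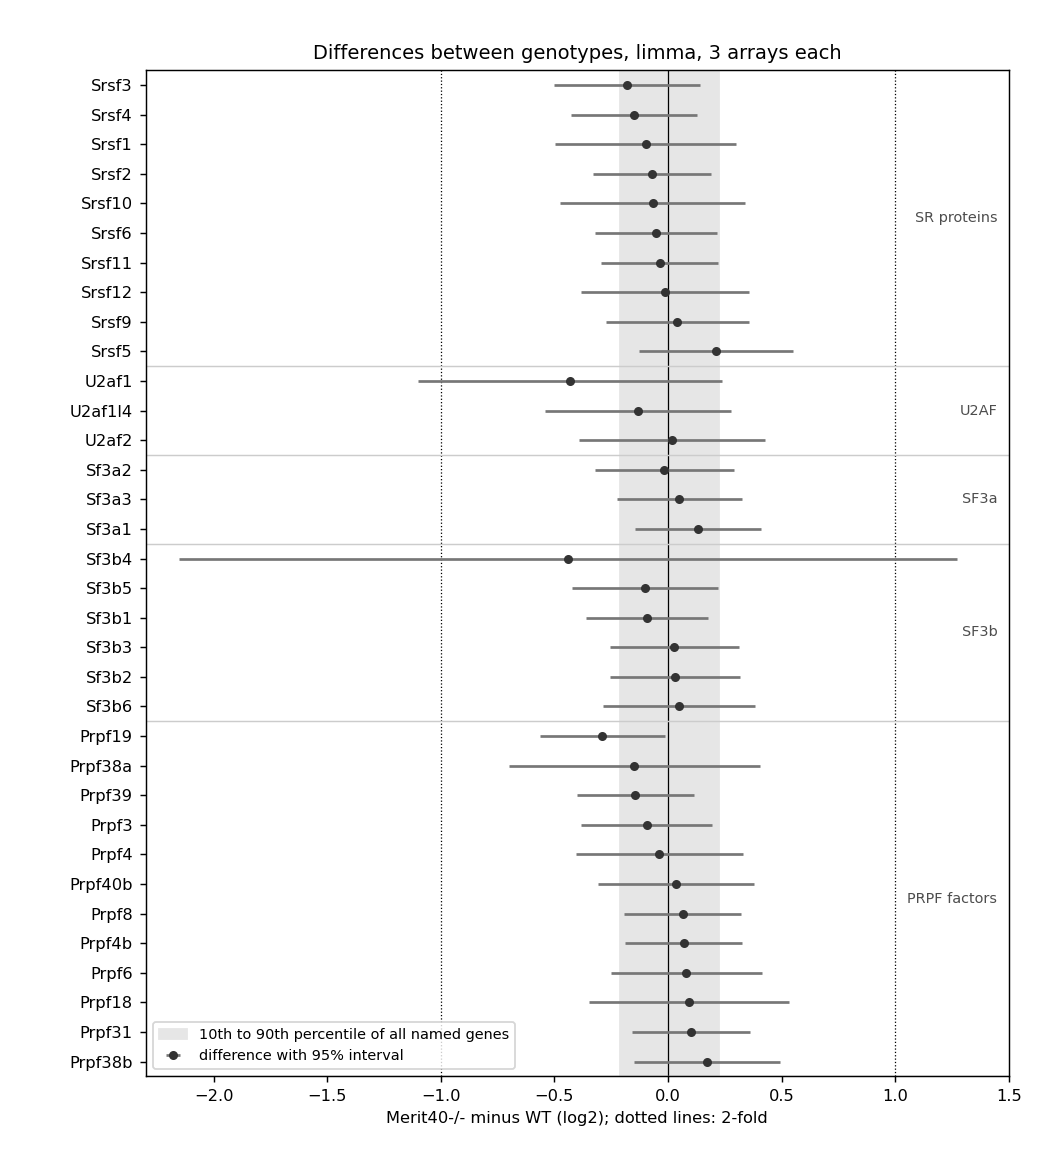
Difference in log2 level between Merit40-/- and WT HSCs (x axis) for each of the 34 splicing factor genes (y axis), as points with limma's 95% interval from 3 arrays per genotype. The grey band holds the middle 80% of all named genes, from -0.21 to 0.22. Only Prpf19 has an interval that leaves out 0, and the intervals of U2af1 and Sf3b4 pass the 2-fold line.

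The DNA around the starts of these genes was compared with that of other genes on the array. RefSeq promoter windows of assembly GRCm38.p6, from 250 bases before to 50 after a start, were at hand for 30 of the 34 genes (38 windows, some of them overlapping). Their median GC content was 60.8%, against 56.7% for the windows of the 17452 array genes with one. The letters CCGGAA, the core bound by ETS factors, occurred on either strand in a window of 18 of the 30 genes (60%), against 20.8% of the array genes and 42.7% of 96 other splicing genes. Matches were then counted per window, so a site shared by overlapping windows counts more than once. Of the 30 such matches 23 lay in the 150 bases nearest the end of the window (76.7%). The share was 67.5% of the matches in all 32851 RefSeq windows. These include genes beyond the 17452 of the array and had a lower median GC content of 52.7%.

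The other motifs were searched in the same way, and matches of different motifs may overlap. The GC box GGGCGG was in windows of 66.7% of the 30 genes and 49.8% of the array genes, and in 70.8% of the other splicing genes. The core TGACGT of CRE elements was in 26.7% and 9.79%, and in 25% of the other splicing genes. The CCAAT box (CCAAT) was in 43.3% and 41.9%, the TATA box TATAAA in 10% and 14.1%, and the E-box CACGTG in 10% and 9.19%. For the other splicing genes these 3 shares were 43.8%, 10.4% and 11.5%. These are matches of letters in windows richer in GC than those of other genes, not measured binding. The windows of the 30 genes also held more CpG pairs (cytosine followed by guanine), with a median count of 25 per window. That median was 25 for the other splicing genes and 13 for the array genes. The ETS core, the CRE core, the GC box and the E-box each contain this pair. The part of the CpG count in the motif shares was not tested.

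Windows of 3 genes are shown: Prpf19, the gene with an unadjusted p under 0.05; Prpf6, which has 4 ETS cores, the most of any of the windows; and U2af1, which has none. They are chr19:10894981-10895280 on the plus strand, chr2:181601069-181601368 on the plus strand and chr17:31658715-31659014 on the minus strand, written in the direction of transcription. Capitals mark CCGGAA and its reverse complement TTCCGG.
Prpf19: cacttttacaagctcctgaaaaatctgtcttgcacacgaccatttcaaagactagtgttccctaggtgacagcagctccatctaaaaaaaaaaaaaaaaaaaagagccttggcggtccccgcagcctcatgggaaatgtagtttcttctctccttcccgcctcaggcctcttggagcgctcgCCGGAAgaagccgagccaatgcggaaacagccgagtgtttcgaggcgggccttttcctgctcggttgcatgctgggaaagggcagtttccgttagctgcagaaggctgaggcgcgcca
Prpf6: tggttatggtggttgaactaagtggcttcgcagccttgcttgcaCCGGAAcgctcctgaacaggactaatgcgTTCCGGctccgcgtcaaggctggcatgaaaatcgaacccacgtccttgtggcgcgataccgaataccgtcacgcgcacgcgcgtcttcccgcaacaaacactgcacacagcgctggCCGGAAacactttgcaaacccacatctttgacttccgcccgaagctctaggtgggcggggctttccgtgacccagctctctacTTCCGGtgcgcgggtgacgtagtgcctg
U2af1: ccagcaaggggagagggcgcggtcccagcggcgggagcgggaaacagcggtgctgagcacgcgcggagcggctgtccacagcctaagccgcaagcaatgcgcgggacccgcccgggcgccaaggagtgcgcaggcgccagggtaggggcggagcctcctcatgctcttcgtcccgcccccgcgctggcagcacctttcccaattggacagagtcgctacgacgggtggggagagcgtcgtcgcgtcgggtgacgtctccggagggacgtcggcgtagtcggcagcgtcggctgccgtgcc

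Among the SR proteins 8 of 10 genes were lower in Merit40-/- and 2 higher, with a median of -0.061, and 0 passed. Srsf2, which binds exonic enhancers and is the SR gene mutated in myelodysplasia, read 10.75, 10.66 and 10.67 in WT and 10.68, 10.52 and 10.67 in Merit40-/-. The genotypes overlapped, and the difference was -0.07 (SE 0.11), with an interval of -0.33 to 0.19. Srsf1, the founding member of the family, read 9.32, 9.35 and 9.56 in WT and 9.42, 8.96 and 9.56 in Merit40-/-. Its lowest value was that of Merit40-/- replicate 2, and its difference of -0.099 (SE 0.17) was 0.077 without that array. Srsf3, the smallest SR protein, read 8.65, 8.56 and 8.88 in WT and 8.50, 8.68 and 8.37 in Merit40-/-, with the lowest difference of the group at -0.18 (SE 0.14), or -0.088 without WT replicate 3.

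With all arrays Srsf5 had the highest difference of the 34 genes. It read 10.68, 10.84 and 11.13 in WT and 11.14, 10.96 and 11.17 in Merit40-/-, a difference of 0.21 (SE 0.15, unadjusted p = 0.189 and adjusted p = 0.999 in limma). The 2 WT arrays numbered 1 and 2 were the lowest, but WT replicate 3 read above Merit40-/- replicate 2, so the genotypes overlapped. Without WT replicate 1 the difference of Srsf5 was 0.11, below the 0.17 of Sf3a1 over the same arrays. Srsf4 and Srsf6, which share with Srsf5 a pair of RNA recognition motifs and a long arginine-serine tail, differed the other way by -0.15 (SE 0.12) and -0.053 (SE 0.12). Srsf9, close to Srsf1 in sequence, differed by 0.04, Srsf10, a splicing repressor when dephosphorylated, by -0.068, and Srsf11 by -0.038. The dim gene Srsf12 read between 4.20 and 4.74 on all 6 arrays and differed by -0.013 (SE 0.16).

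U2AF is a dimer of the large subunit U2af2, which binds the polypyrimidine tract, and the small subunit U2af1, which contacts the AG at the end of the intron. U2af1 read 8.76, 8.36 and 9.56 in WT and 8.69, 8.17 and 8.53 in Merit40-/-. WT replicate 3 stood above the other 5 arrays, which lay between 8.17 and 8.76. The difference was -0.43 (SE 0.29, adjusted p = 0.999 in limma) with an interval of -1.1 to 0.24, and it was -0.097 without WT replicate 3. U2af2 read 7.83, 8.11 and 7.56 in WT and 8.04, 7.61 and 7.91 in Merit40-/-, so the same WT array that was highest for U2af1 was the lowest for its partner. Its difference was 0.019 (SE 0.18). U2af1l4, a relative of U2af1 that can take its place in the dimer, read 7.32, 7.61 and 7.89 in WT and 7.23, 7.61 and 7.58 in Merit40-/-, a difference of -0.13 (SE 0.18) that was -0.011 without Merit40-/- replicate 1 and 0.011 without WT replicate 3.

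SF3a and SF3b hold the U2 particle on the branch site, and 5 of their 9 genes were higher and 4 lower, with 0 passing. Sf3b1, the subunit that clamps the branch helix and the gene most often mutated in myelodysplasia with ring sideroblasts, read 10.37, 10.42 and 10.42 in WT and 10.45, 10.25 and 10.23 in Merit40-/-. Merit40-/- replicates 2 and 3 were below all WT arrays and replicate 1 above them. The difference was -0.093 (SE 0.12), with an interval of -0.36 to 0.18. The SF3a genes differed by at most 0.13. Sf3a1 differed by 0.13 (8.85, 8.81 and 8.66 in WT against 8.84, 8.86 and 9.02), Sf3a2 by -0.018 (9.15, 9.05 and 8.91 against 8.96, 8.90 and 9.20) and Sf3a3 by 0.049. Sf3b2 differed by 0.032, the scaffold subunit Sf3b3 by 0.026 and Sf3b5 by -0.1. Sf3b6, which sits at the branch adenosine, read 9.15, 9.45 and 9.14 in WT and 9.23, 9.16 and 9.49 in Merit40-/- and had the highest difference of SF3b at 0.048 (SE 0.14).

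Sf3b4, whose protein contacts RNA upstream of the branch site, was unlike the rest in its scatter. Its WT arrays read 5.81, 7.55 and 6.97 and its Merit40-/- arrays 6.89, 7.58 and 4.54, a range of 1.74 within WT and 3.03 within Merit40-/-. The SD within genotypes was 1.29, larger than that of 99.9% of all genes, where the median of the 34 was 0.16. The difference of -0.44 (SE 0.75, adjusted p = 0.999 in limma) had an interval of -2.16 to 1.27 and was 0.46 without Merit40-/- replicate 3, the array with osteoclast genes. It was -0.054 without WT replicate 2 and -1.06 without Merit40-/- replicate 2. The part of the osteoclast genes in its low value was not tested. U2af1 came next, with an SD of 0.47 (larger than that of 96.3% of genes). They are the 2 members with a range over 1 within a genotype, 5.88% of the 34 against 5.6% of all genes.

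**Figure D2:**
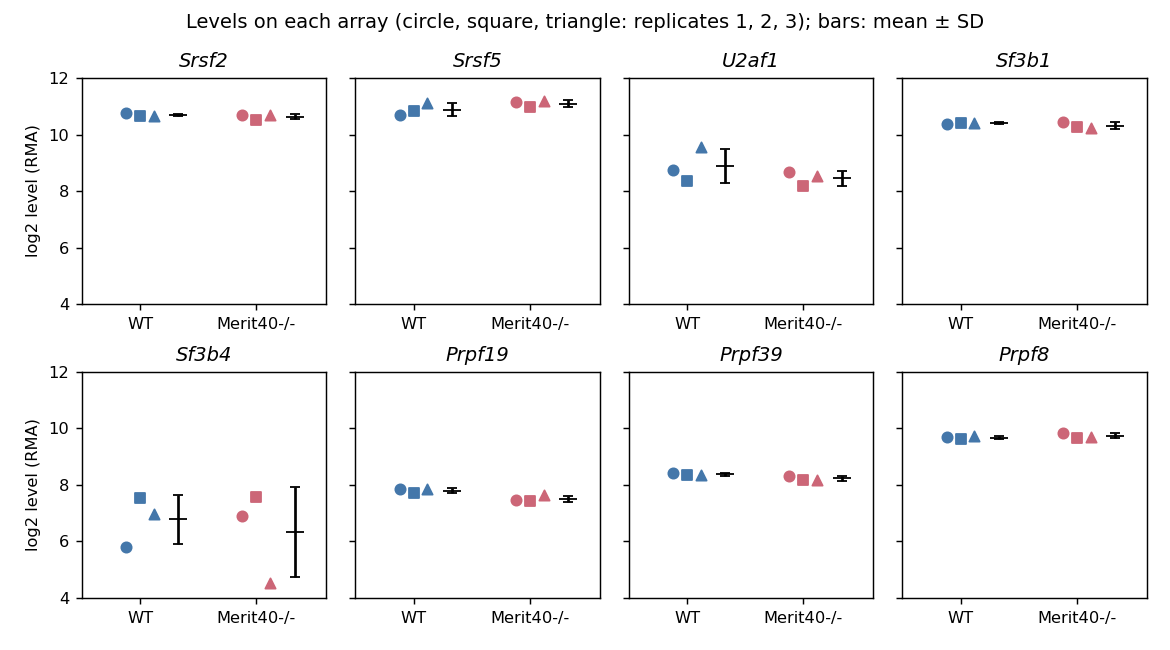
Log2 levels (y axis, RMA) of 8 splicing factor genes on the 3 WT and 3 Merit40-/- arrays, with the mean and SD of each genotype as bars. Srsf2, Sf3b1 and Prpf8 repeat closely, U2af1 has 1 high WT array, Sf3b4 spans 4.54 to 7.58, and the Prpf19 arrays of the genotypes do not overlap.

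The PRPF factors had 7 of 12 genes higher and 5 lower, with a median of 0.049. Prpf19, the ubiquitin ligase whose complex stabilises the activated spliceosome and which also acts at damaged DNA, read 7.84, 7.71 and 7.84 in WT and 7.48, 7.42 and 7.64 in Merit40-/-. Each Merit40-/- array lay below each WT array, with a gap of 0.074 between the nearest. The WT mean was 7.80 ± 0.08 (SD, n = 3), against 7.51 ± 0.11 (SD, n = 3) for Merit40-/-. The difference was -0.29 (SE 0.12), or 1.22-fold, with an unadjusted p of 0.0409 and an adjusted p of 0.999 in limma, so it did not pass. The exact permutation test gave p = 0.1 (2-sided), the smallest that 3 arrays against 3 allow. With 1 array left out it lay between -0.35 and -0.24. Prpf39, a partner of the U1 particle, read 8.42, 8.36 and 8.34 in WT and 8.32, 8.18 and 8.19 in Merit40-/-. Its arrays also did not overlap, but by little, and the difference was -0.14 (SE 0.11, adjusted p = 0.999 in limma).

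Prpf8, the largest protein of the spliceosome and the cradle of its active site, was among the steadiest. It read 9.69, 9.62 and 9.72 in WT and 9.83, 9.67 and 9.71 in Merit40-/-, a difference of 0.064 (SE 0.11) with an interval of -0.19 to 0.32. In the U4/U6 part of the tri-snRNP, Prpf3 differed by -0.093, Prpf4 by -0.038 and Prpf31 by 0.1 (SE 0.11). Prpf6, which bridges U5 with U4/U6, differed by 0.08, and the kinase Prpf4b, which phosphorylates tri-snRNP proteins, by 0.069. Prpf38b read 8.21, 8.60 and 8.48 in WT and 8.55, 8.72 and 8.52 in Merit40-/-, the highest difference of the group at 0.17 (SE 0.14), or 0.060 without WT replicate 1. Its relative Prpf38a differed by -0.15 (SE 0.24), with WT replicate 2 at 8.31 and Merit40-/- replicate 1 at 8.23 against 7.42 to 7.75 on the other 4 arrays. It was 0.045 without WT replicate 2, 0.029 without Merit40-/- replicate 3 and -0.38 without Merit40-/- replicate 1. That array was the one high in muscle genes, and any part of muscle RNA in the value was not tested. Prpf18, of the second catalytic step, differed by 0.093 (SE 0.19), and the U1-associated Prpf40b by 0.034 (SE 0.15).

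**Figure D3:**
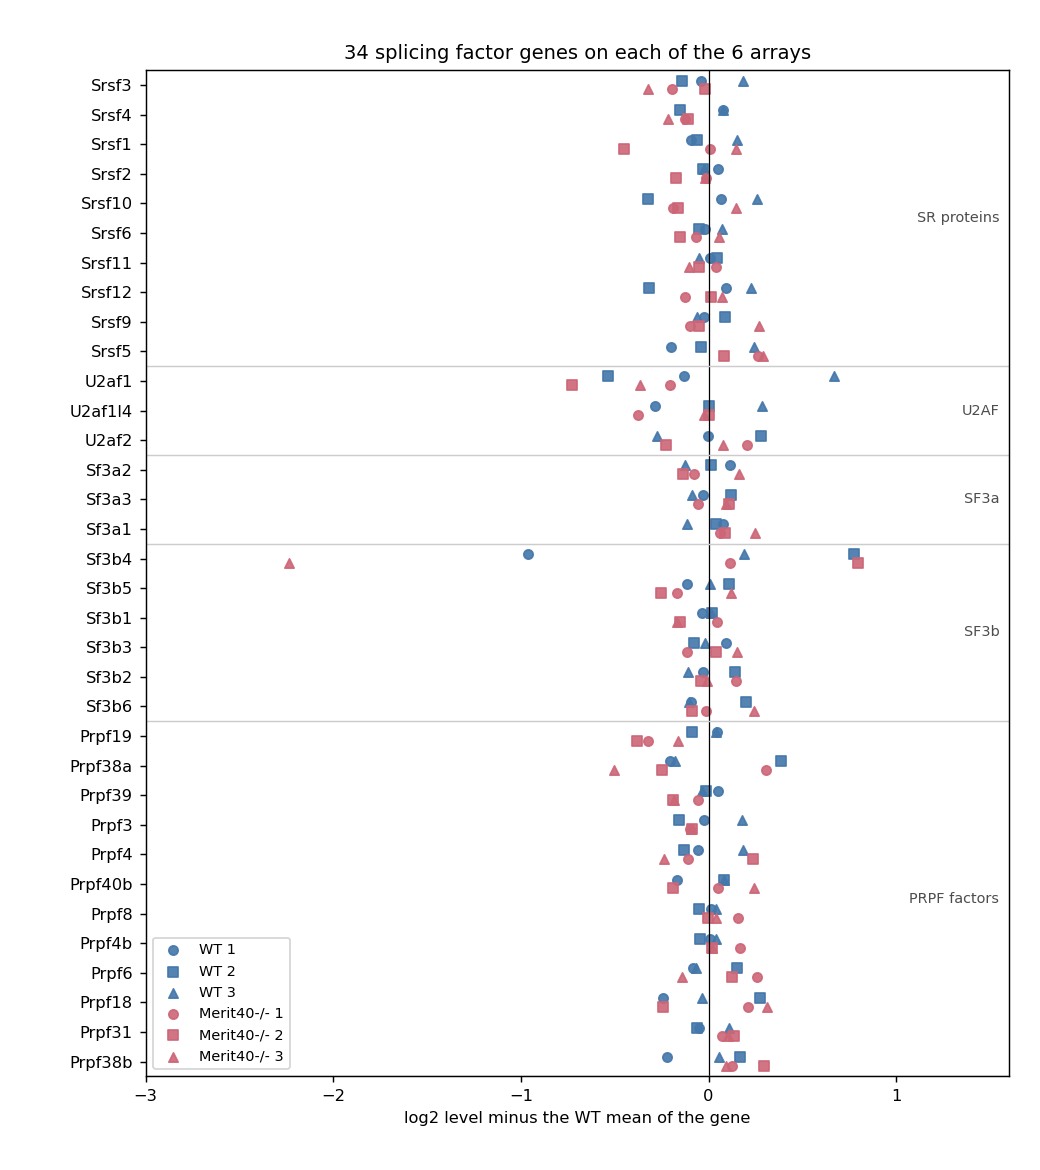
Log2 level on each array minus the WT mean of the gene (x axis) for the 34 genes (y axis), with WT arrays in blue and Merit40-/- arrays in red and the replicate number as the marker shape. Sf3b4 and U2af1 scatter most, with overlapping colours. The red points of Prpf19 and Prpf39 all lie left of the blue ones, and in the other genes the colours mix around 0.

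No array shifted every family in the same direction, and the 34 genes together shifted little. Relative to the mean of each gene over 6 arrays, the median of the 34 was -0.024, 0.041 and 0.045 on WT replicates 1, 2 and 3 and 0.014, -0.05 and 0.028 on Merit40-/- replicates 1, 2 and 3. The genotypes overlapped, and the array with muscle genes lay in the middle. Single families moved more. WT replicate 3 had medians of 0.35 for U2AF and 0.15 for SR proteins but -0.12 for SF3a. The median of U2AF was -0.24 on Merit40-/- replicate 2, that of SF3a 0.17 on Merit40-/- replicate 3 and that of SF3b 0.14 on WT replicate 2. WT replicate 3 and Merit40-/- replicate 3 were each the highest array for 9 of the 34 genes, while WT replicate 1 was so for 3. Merit40-/- replicate 2 was the lowest array for 9 and Merit40-/- replicate 3 for 8. Over all genes, each array was the highest for 14.6% to 19.2% and the lowest for 15.4% to 17.8%.

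The rest of the splicing machinery was read from 11 lists with 128 genes, 120 of them measured. Of these, 0 passed after adjustment in limma, 2 had an unadjusted p under 0.05 (an unmoderated test gave 0 and 5), and 11 (9.17%) did not overlap between genotypes, near the 9.05% of all genes. More of them were lower than higher in Merit40-/-: 80 of 120 (66.7%) against 48.5% of all genes, with a median of -0.044. On WT replicate 2 their median deviation was 0.06, the highest of the 6 arrays. Lower were 69 of 120 without that array, 71 without Merit40-/- replicate 2, and 73 to 82 without any 1 of the other 4. Genes of 1 machine are not independent of each other, and this imbalance was not tested. Of 8 listed erythroid markers 5 were measured, and their mean was lower in Merit40-/-. It was 5.93 to 6.50 on the WT arrays and 5.55 to 5.79 on the Merit40-/- arrays, without overlap. Each of the 5 genes taken alone overlapped between the genotypes. Car1, a carbonic anhydrase of erythroid cells, differed by -0.84 and Ermap, a red cell membrane protein, by -0.90. The other erythroid markers differed by -0.29 (Klf1), -0.20 (Epor) and -0.13 (Alas2). The neutrophil genes did not move together: Ctsg and Ly6g differed by 0.92 and 0.81, but S100a8 and S100a9 by -0.098 and -0.054. The rest of that list differed by 0.56 (Elane), 0.25 (Mpo), 0.064 (Prtn3) and 0.027 (Csf1r). Car1, Ermap, Ctsg and Ly6g are the markers of these 2 lists with an unadjusted p under 0.05 in limma (2 of 5 and 2 of 8). Mmp9, Nkg7, Cxcl12 and Emcn of the other marker lists had one too, and 4.22% of all genes did. None of these markers passed after adjustment in limma. The mean of the 8 granulocyte and monocyte markers overlapped, at 7.87 to 8.17 in WT and 7.99 to 8.54 in Merit40-/-. The part of these cells in the imbalance was not tested.

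**Figure D4:**
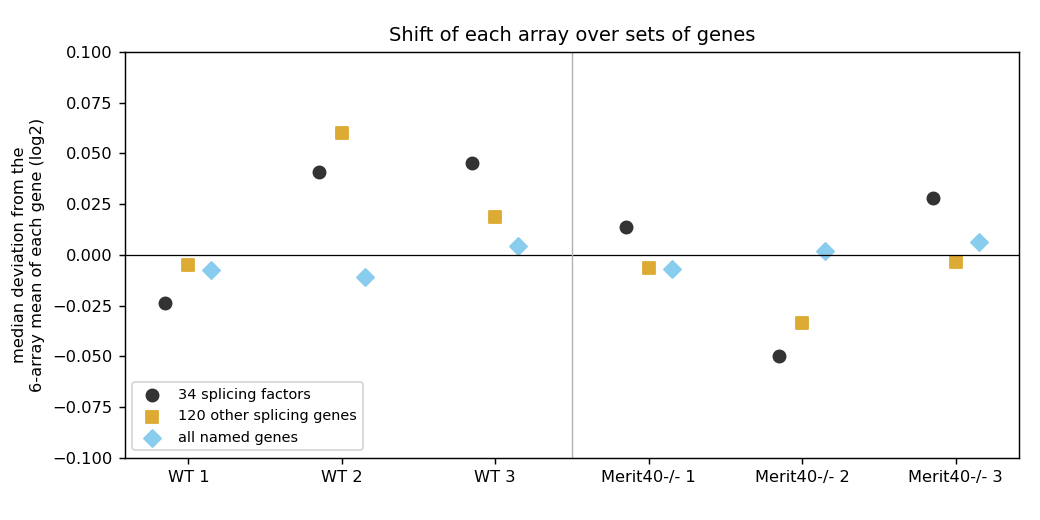
Median deviation of each array from the 6-array mean of each gene (y axis, log2) for the 34 splicing factors, 120 other splicing genes and all named genes. WT replicate 2 is highest for the other splicing genes at 0.06, Merit40-/- replicate 2 is lowest for both sets, and all shifts are under 0.1.

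The 2 genes past an unadjusted p of 0.05 were Lsm5 and Snrnp35, both small parts of RNA particles. Lsm5, of the LSm ring on U6 RNA, read 5.18, 5.58 and 5.26 in WT and 3.98, 4.82 and 4.88 in Merit40-/-, a difference of -0.78 (SE 0.24, adjusted p = 0.999 in limma). Its lowest value was that of the array with muscle genes, and the difference was -0.49 without it. Any part of muscle RNA in it was not tested. Snrnp35, of the minor spliceosome that removes rare introns, read 3.63, 3.52 and 3.74 in WT and 4.61, 3.99 and 4.39 in Merit40-/-, a difference of 0.70 (SE 0.17, adjusted p = 0.999 in limma). All 6 values of Snrnp35 and the Merit40-/- values of Lsm5 lie below the median level of all genes.

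By list, 8 of 13 Sm and LSm genes were lower, with Lsm6 the highest at 0.33, and all 6 genes of the U1 particle were lower, from Luc7l3 at -0.13 to Snrnp70 at -0.035 (0.011 without WT replicate 3). The U2 partners ran from Phf5a, the remaining SF3b subunit, at -0.12 to Snrpa1 at 0.12, and the U5 and tri-snRNP partners from Snrnp40 at -0.14 to the cyclophilin Ppih at 0.23. The complex in which Prpf19 acts and its neighbours had 12 of 18 lower, from Ppil1 at -0.38 to Xab2 at 0.22. The helicases of the later steps lay between Dhx16 at -0.28 and Dhx8 at 0.26. The kinases that phosphorylate SR proteins had 4 of 7 lower, from Clk3 at -0.13 to Srpk3 at 0.35, and the SR-related proteins 10 of 14, from Rnps1 at -0.24 to Son at 0.11. The minor spliceosome had 6 of 7 lower, with Pdcd7 the lowest at -0.17; Zrsr2, the U2af1 relative of that machine, was not analysed here. The hnRNP proteins, which often oppose SR proteins, had 14 of 24 lower, from Hnrnpf at -0.17 to Hnrnph2 at 0.26. In the exon junction complex Rbm8a differed by -0.19 and Eif4a3 by 0.17.

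Many of these list extremes rest on 1 array. When Merit40-/- replicate 1 (high in muscle genes) was left out, Ppil1 differed by -0.16, Srpk3 by 0.16, Hnrnpf by -0.050, Phf5a by -0.076, Rbm8a by 0.073 and Eif4a3 by -0.026. Any part of muscle RNA in them was not tested. Without WT replicate 3 the difference was 0.032 for Ppih, -0.071 for Luc7l3, -0.067 for Hnrnpf, -0.19 for Eif4a3 and -0.0049 for Snrpa1, and without WT replicate 1 it was 0.017 for Dhx8 and -0.041 for Clk3. Without WT replicate 2 it was 0.21 for Lsm6 and -0.15 for Rnps1. Without Merit40-/- replicate 2 it was 0.079 for Pdcd7 and -0.18 for Dhx16, and without Merit40-/- replicate 3 it was 0.13 for Ppih and -0.010 for Snrpa1.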

How the data were processed

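Levels were measured on 6 arrays, 3 per genotype. The deposited values are log2 levels. Per the submitters' processing notes the authors used RMA and the affy package. No version, chip definition or build is given in the sources used here. RMA evens out differences in RNA yield between arrays. The table held 25206 probe sets named by Entrez Gene number and 0 missing values; 23185 had 1 symbol, 0 several, and 2021 were unnamed here. Current symbols came from a gene table (GRCm38.p6), which held all 23185. Sequences are from RefSeq.

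All 23185 genes were tested without a filter in limma 3.58.1 (under R 4.3.3, with lmFit, eBayes and no term but genotype, 2-sided, Benjamini-Hochberg adjustment over all genes, threshold 0.05). The procedure was tested on simulated data. Differences are Merit40-/- minus WT with moderated standard errors (SE).

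The members and lists were chosen with earlier results of these data known. Each member is named. Array values are given for Sf3b1, Srsf2, U2af1, U2af2, Prpf8, Srsf1 and Srsf3, for the extremes of each family and for genes with an unadjusted p under 0.05 or no overlap. Other lists give their extremes. Further array values (U2af1l4, Srsf12, Prpf38a) and the motifs were picked with the values in view. The alternatives were a replicate block, array weights, another variance model, an unmoderated test, 2 scalings, 2 filters on dim genes and each array left out.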

Additional observations from a re-analysis of the deposited data

How the results depend on the processing

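With 3 arrays per genotype only large or very even differences can pass. Across the 8 alternatives with all arrays and the 6 with 1 left out, 0 of the 34 splicing factors and 0 of the 120 other splicing genes passed after adjustment. Babam1 passed in all but the unmoderated test (-3.94, adjusted p = 0.168), and its difference with 1 array left out was -4.06 to -3.85 in limma. The count of the 34 at an unadjusted p under 0.05, 1 with all arrays, was 0 with the replicate block, with the other variance model and without the dimmest 30% or 50% of genes, 2 in the unmoderated test, and 0 to 2 with 1 array left out. For the other splicing genes this count was 5 in the unmoderated test and 1 without the dimmest 50%, and 2 to 5 with 1 array left out. The count of the 34 without overlap, 2 with all arrays, was 3 to 8 with 1 array left out (8.82% to 23.5% of them), where 16.9% to 19.6% of all genes did not overlap. Same-numbered arrays of the genotypes deviated with correlations of -0.048, -0.0027 and 0.044. These show no strong shared deviation but cannot show whether the mice were matched by number. The replicate block changed no adjusted call. The median of the 34 stayed between -0.038 and -0.016 with all arrays and between -0.052 and 0.0069 with 1 left out, and that of the other splicing genes between -0.061 and -0.027 with 1 left out. For the 34 and the other splicing genes named, no sign changed under an alternative with all arrays. Of all 120 other splicing genes, 76 to 80 were lower under these alternatives. With 1 array left out the sign changed for 16 of the 34, over these ranges of the difference: Prpf18 -0.028 to 0.26, Prpf38a -0.38 to 0.045, Prpf4 -0.18 to 0.063, Prpf40b -0.070 to 0.15, Prpf6 -0.0096 to 0.19, Sf3a2 -0.11 to 0.043, Sf3b2 -0.024 to 0.10, Sf3b3 -0.036 to 0.097, Sf3b4 -1.06 to 0.46, Sf3b6 -0.050 to 0.15, Srsf1 -0.22 to 0.077, Srsf10 -0.23 to 0.061, Srsf12 -0.17 to 0.10, Srsf9 -0.075 to 0.11, U2af1l4 -0.27 to 0.011, U2af2 -0.12 to 0.16. Of the other splicing genes named, it changed for 5: Eif4a3 -0.19 to 0.36, Pdcd7 -0.31 to 0.079, Rbm8a -0.33 to 0.073, Snrnp70 -0.081 to 0.011, Snrpa1 -0.010 to 0.23.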
